A study of Sus scrofa with 8 samples.

Results

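The genes described here are PF4 and PPBP, which encode chemokines stored in platelet granules, and SELP and THBS1, which encode adhesion proteins of the same granules. They were found by gene name, by symbol in the probe description or by full gene name among the 43603 probes of a pig array. They are 4 of 1933 genes that could be named on it. These 4 genes had 6 probes, of which 5 were bright enough to test. 1 of the 6, a second PPBP probe, was matched only through an older name of the gene given in the files. The arrays were hybridised with whole-blood RNA from 4 SDW-fed and 4 control female Clawn miniature pigs, labelled conventional animals of 8 to 9 months, with 1 array per animal. The labels spell SDW out as shochu distilled water, shochu being a Japanese spirit. SDW-fed pigs received standard dry feed, water and SDW in equal weights, and control pigs received standard dry feed. The design gives 12 weeks of feeding, whereas the sample descriptions carry 14, 15, 16 and 17 weeks, once each in both diets. No agent or genetic change is recorded for either group.

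Platelets are shed by megakaryocytes and carry RNA but no nucleus, so platelet messages in whole blood come from those fragments and from any leukocyte that makes the same RNA. On activation their alpha granules release platelet factor 4 (PF4), which binds heparin, and platelet basic protein (PPBP), the precursor of the neutrophil attractant NAP-2. P-selectin (SELP) moves from the granule membrane to the surface, where it binds PSGL-1 on leukocytes. Thrombospondin 1 (THBS1) is released and binds CD36, CD47 and integrins. In such bulk RNA, fewer platelets and less RNA per platelet cannot be told apart.

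The probe letters are shown because of the strand and the run of C of the main THBS1 probe. They are copied from the deposited scanner files, with the longest run of C in capitals, or the first of equal runs. The main probes of PPBP and THBS1 are given whole (60 bases) and the others as 30 bases around that run.
PF4, bases 31 to 60: ttacagtttcatagaaggaaacatctCCaa
PPBP, main probe: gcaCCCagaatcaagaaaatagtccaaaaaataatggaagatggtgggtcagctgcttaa
PPBP, second probe, bases 1 to 30: ctgCCCttgtcaatgttggttttataagca
SELP, bases 31 to 60: gtcactgtagactttCCCtctactgtcact
THBS1, main probe: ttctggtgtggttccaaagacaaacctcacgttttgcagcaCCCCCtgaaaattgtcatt
THBS1, second probe, bases 31 to 60: gacagaaactctaatCCatgacacatcgca
The main THBS1 probe alone among the 6 held a run of 5 C, starting at base 42. Its target is described in the files as a read from the 3′ end of a cDNA clone, and the probe begins at base 475 of it. On the strand as printed, 2 of its 3 frames have no stop, so open frames alone do not tell the strands apart. Read on the opposite strand, 1 of its 3 frames has no stop, and that frame spells part of the amino-terminal domain of thrombospondin 1 as it is known in human. The letters on the array therefore run along the complement of the coding strand. The PPBP main probe runs along the coding strand and ends in a stop codon. The labelling made cRNA of the strand opposite to the message, which is the strand these THBS1 letters run along. On that reading the probe has the sequence of the labelled THBS1 RNA and would not pair with it. The strand was read from the human protein, with no pig transcript at hand, and what the probe paired with was not tested. Its values are given as those of the probe, and THBS1 below stands for this probe unless the second is named.

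PF4, SELP, both PPBP probes and the main THBS1 probe were well above background on all 8 arrays. ITGA2B and ITGB3, the platelet fibrinogen receptor, were too, so platelet genes were measured in the blood of every animal. Of 12 platelet markers, 4 were named on the array, PF4, PPBP, ITGA2B and ITGB3, and all 4 were tested. Levels below are log2 processed signal minus the array's own 75th percentile. That percentile ranged from 39.9 to 73.1 intensity units in SDW arrays and from 41.2 to 58.6 in control arrays. Between 38.0% and 43.6% of probes were well above background in SDW arrays, against 35.2% to 42.3% in control arrays. The 8 arrays sat on 3 slides, each with both diets. Slide 1 held SDW 2, SDW 3 and control 3, slide 2 held SDW 1, control 2 and control 4, and slide 3, scanned on another day, held SDW 4 and control 1. In the authors' value table, 7 of the 8 columns matched the scanner file of another animal of the same diet, so animal numbers here follow the scanner files and the diets are unaffected.

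The question for each gene was whether its level differed between SDW-fed and control pigs. PF4 had the largest mean difference of the main probes in favour of SDW, PPBP and SELP had smaller ones of the same sign, and the THBS1 probe had one of the opposite sign. None of the 5 tested probes passed an adjusted p of 0.05 (limma with Benjamini-Hochberg adjustment over 17353 probes). Nor did any other probe: 0 of 17353 passed, which is 0%, and 251 passed an unadjusted p of 0.05, which is 1.45%. Of the 5 tested probes, none passed the unadjusted threshold either, though PF4 and the second PPBP probe did with the slide as a block. That fit put 6.59% of all probes past the same threshold. None had all 4 SDW animals on one side of the 4 control animals, a separation that 171 probes (0.985%) showed. The SDW mean exceeded the control mean for 4 of the 5 probes, and for 52.9% of all tested probes.

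**Figure D1:**
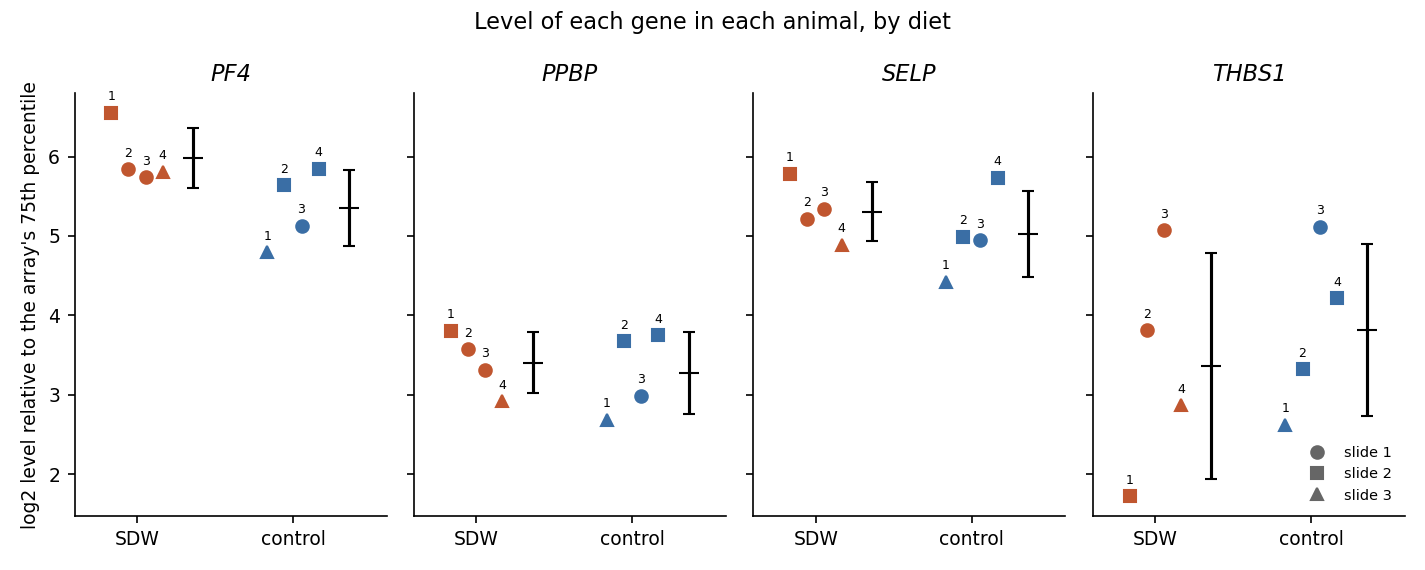
Level of the main probe of each gene in each animal (log2 relative to the array's 75th percentile), SDW left and control right in each panel. Symbols give the slide, numbers the animal and the bars to the right the mean ± SD (n = 4 each); the diets overlap for all 4 genes, and THBS1 spans 3.39 log2 units over the 8 animals.

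PF4 lay at 6.55, 5.84, 5.74 and 5.81 in SDW animals 1 to 4, against 4.79, 5.64, 5.13 and 5.85 in control animals 1 to 4. SDW 1 stood above all other animals, the other SDW animals lay close together, and control 4 lay just above those 3 and control 2 just below them. The SDW mean was 5.99 ± 0.38 and the control mean 5.35 ± 0.48 (SD, n = 4 each). The difference was 0.63 log2 (SE 0.30, 95% interval -0.04 to 1.31), a 1.55-fold higher mean in SDW, with an adjusted p of 1.00 (limma, unadjusted p = 0.0638). SDW exceeded control in 13 of the 16 pairs of animals.
Set against control on the same slide, PF4 in SDW was higher by 0.66 on slide 1, 0.81 on slide 2 and 1.01 on slide 3. With the slide as a block the difference was 0.81 (SE 0.20, limma unadjusted p = 0.00284, adjusted p = 0.732). That fit put 6.59% of all probes past an unadjusted p of 0.05, against 1.45% without it, and none past the adjusted threshold.

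The main PPBP probe lay at 3.81, 3.58, 3.31 and 2.92 in SDW animals 1 to 4, against 2.69, 3.67, 2.99 and 3.75 in control animals 1 to 4. The 2 diets covered nearly the same range, and the lowest animal of each diet was the one on slide 3. Slides accounted for 83.7% of the variance of this probe over the 8 arrays and diets for 2.56%. The difference was 0.13 log2 (SE 0.31, 95% interval -0.57 to 0.83), with an adjusted p of 1.00 (limma). With the slide as a block it was 0.26 (SE 0.20, limma unadjusted p = 0.230, adjusted p = 0.804). Its sign did not hold without SDW 1 (-0.01) or without control 1 (-0.07), and it was 0.29 without SDW 4.
The second PPBP probe lay at 1.94, 1.10, 1.01 and 1.61 in SDW animals, against 0.43, 1.52, 0.20 and 1.67 in control animals. Control 1 and control 3 were its lowest animals, and the other 6 lay between 1.01 and 1.94. Its difference was 0.46 (SE 0.39, adjusted p = 1.00, limma). With the slide as a block it was 0.76 (SE 0.22, limma unadjusted p = 0.00800, adjusted p = 0.732). The within-slide differences of SDW minus control were 0.85, 0.34 and 1.18 for the second probe, against 0.46, 0.09 and 0.23 for the main probe, all of the same sign.

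SELP, the P-selectin gene, lay at 5.78, 5.22, 5.34 and 4.89 in SDW animals 1 to 4, against 4.43, 4.99, 4.95 and 5.73 in control animals 1 to 4. SDW 1 and control 4, both on slide 2, were its highest animals, and SDW 4 and control 1, both on slide 3, its lowest. The difference was 0.28 log2 (SE 0.32, 95% interval -0.42 to 0.99, adjusted p = 1.00, limma). Within slides SDW was higher by 0.33, 0.42 and 0.46. With the slide as a block the difference was 0.40 (SE 0.23, limma unadjusted p = 0.119, adjusted p = 0.761). Without control 1 the difference fitted without slides was 0.08, without SDW 1 0.13 and without control 4 0.52.

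The main THBS1 probe lay at 1.72, 3.81, 5.07 and 2.87 in SDW animals 1 to 4, against 2.62, 3.32, 5.11 and 4.22 in control animals 1 to 4. SDW 1 was the lowest of all animals, while SDW 3 and control 3, both on slide 1, were nearly equal and the highest. Its SD over the 8 arrays, 1.19, was larger than that of 97.0% of the tested probes, whereas those of PF4 (0.52), PPBP (0.43) and SELP (0.45) exceeded 65.7%, 51.9% and 55.9% of them. The difference was -0.45 (SE 0.72, 95% interval -2.06 to 1.16, adjusted p = 1.00, limma). Within slides SDW minus control was -0.67, -2.05 and 0.25, so the sign was not shared by the 3 slides. With the slide as a block the difference was -0.92 (SE 0.45, limma unadjusted p = 0.0696, adjusted p = 0.732). With 1 animal left out it ran from -1.02 without SDW 3 to 0.10 without SDW 1, and without slide 1 it was -1.09.
The second THBS1 probe, for a target described as a thrombospondin 1 fragment, was well above background on 0 of 4 SDW arrays and on 1 of 4 control arrays. It lay at -3.53, -3.44, -4.35 and -3.69 in SDW animals, against -2.27, -4.47, -3.04 and -2.51 in control animals, and was not tested.

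**Figure D2:**
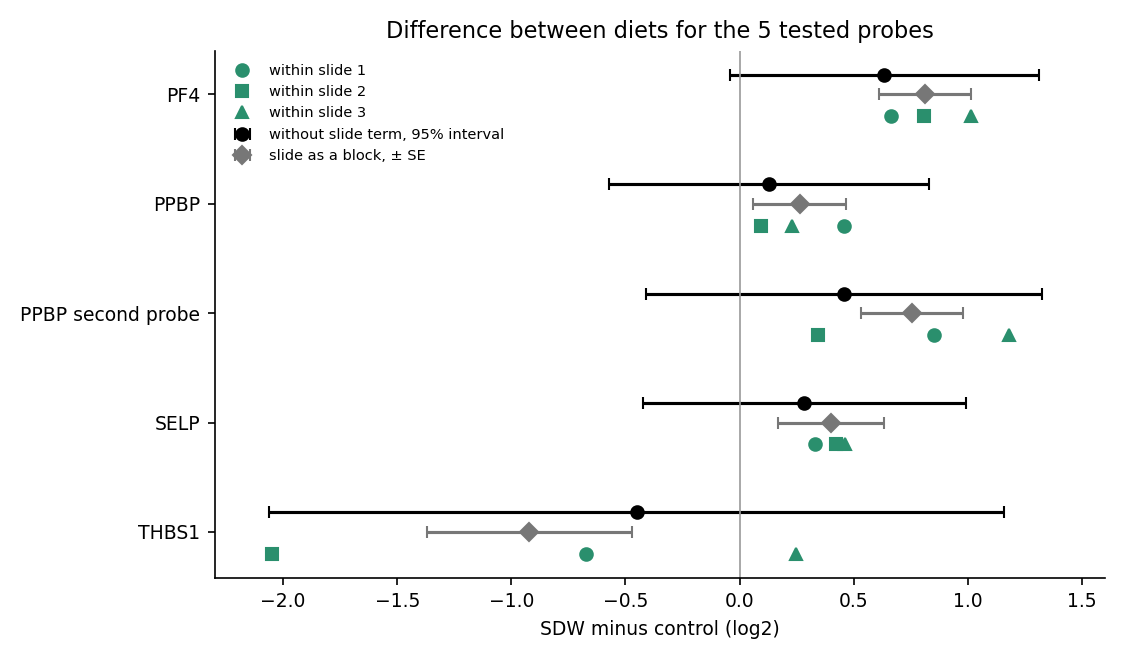
SDW minus control for the 5 tested probes (log2), with the 95% interval of the fit without slides (circles with black bars), the fit with slides as a block (diamonds ± SE) and the difference within each slide (green). All black intervals cross 0; the green symbols of PF4, PPBP and SELP lie above 0 on all 3 slides, and those of THBS1 on 1 of 3.

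Granule chemokines were then set against adhesion genes within each animal, as the mean of PF4 and PPBP minus the mean of SELP and THBS1, each gene centred on its mean over the 8 arrays. This difference was 1.30, 0.07, -0.80 and 0.36 in SDW animals 1 to 4, against 0.09, 0.38, -1.10 and -0.30 in control animals 1 to 4. The groups overlapped, at 0.23 ± 0.87 in SDW and -0.23 ± 0.64 in control animals (SD, n = 4 each). The chemokine mean was 0.38 higher in SDW and the adhesion mean differed by -0.08. Within the adhesion mean, SELP differed by 0.28 and the THBS1 probe by -0.45. By its strand that probe was not shown to measure THBS1 message, so the contrast is one of probes. SDW 1, SDW 3 and control 3, the animals farthest from 0, were also those in which THBS1 was farthest from its mean, at -1.87, 1.48 and 1.52. Without SDW 1 the contrast between diets was 0.11, and without control 3 it was 0.18, against 0.46 with all animals.

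Over the 8 animals, PF4, PPBP and SELP varied together. Of 6 relations among the 4 genes, these 3 passed an adjusted p of 0.05 by Pearson correlation (exact permutation test, Benjamini-Hochberg over 6). The permutations treated the 8 arrays as exchangeable and took no account of slides or diets. Slides held 34.0% of the variance of PF4, 83.7% of PPBP and 59.4% of SELP. Diets held 41.7%, 2.56% and 11.2% in the same order. PF4 and PPBP had r = 0.77 (exact permutation p = 0.0148, adjusted p = 0.0297) and rho = 0.76 (adjusted p = 0.0735). PF4 and SELP had r = 0.84 (exact permutation p = 0.00903, adjusted p = 0.0271) and rho = 0.81 (adjusted p = 0.0653). PPBP and SELP had r = 0.84 (exact permutation p = 0.00853, adjusted p = 0.0271) and rho = 0.90 (adjusted p = 0.0274).
After each slide's mean was removed, r was 0.76, 0.79 and 0.55 for these 3 pairs in the same order. Within SDW animals r was 0.72, 0.83 and 0.89, and within control animals 0.99, 0.89 and 0.83 (n = 4 each). Without the 2 animals farthest from the median of the first gene, r fell to 0.48, 0.47 and 0.65, so the relations with PF4 rested in large part on SDW 1 and control 1. THBS1 had r = -0.33 with PF4, -0.08 with PPBP and 0.03 with SELP (exact permutation, adjusted p from 0.641 to 0.946), and rho of -0.21, -0.07 and 0.07 (adjusted p = 0.882 for each). Without 2 animals these r were -0.52, -0.77 and 0.80, and after removing slide means -0.53, -0.46 and -0.16. The pair of PPBP probes had r = 0.71 over the same arrays, given as a description. The other platelet markers did not share 1 profile. ITGB3 had r = 0.53 with PF4, 0.83 with PPBP and 0.75 with SELP. ITGA2B ran the other way, at -0.58, -0.47 and -0.26, and had r = 0.84 with the THBS1 probe. These r were not tested.

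**Figure D3:**
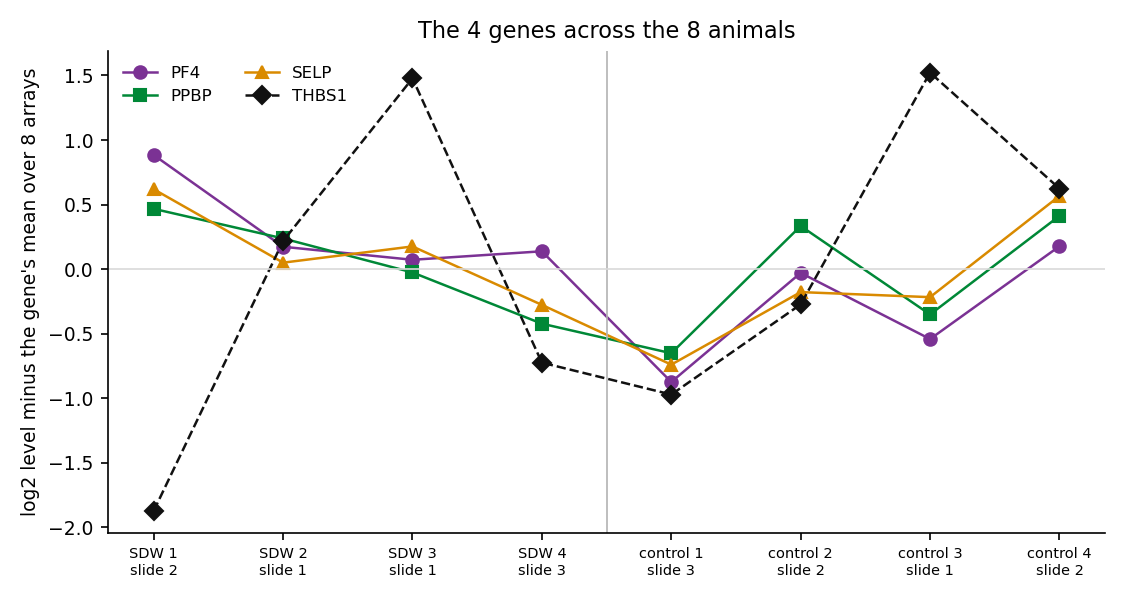
Level of each gene in the 8 animals minus its mean over them (log2), SDW animals left of the line and control animals right of it, with the slide under each name. PF4, PPBP and SELP run close together, high in SDW 1 and low in control 1, while THBS1 (dashed) reaches -1.87 in SDW 1 and 1.52 in control 3.

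Among 1101 other named genes tested, the profile most like that of PF4 belonged to SIRT1, a deacetylase, with r = 0.98 over the 8 arrays, followed by FHL1 (0.92), a LIM-domain protein of muscle, and PPP1CC (0.92), a catalytic subunit of protein phosphatase 1. SELP ranked 9 and PPBP 21 on that list. PPBP was most like PLAGL1 (0.97), a zinc-finger factor, LYST (0.96), a regulator of lysosome-related granules, and YIPF5 (0.93), a Golgi protein. SELP was most like SOD1 (0.94), superoxide dismutase, DESI2 (0.89) and HDC (0.88), the enzyme that makes histamine, with PPBP and PF4 at ranks 6 and 7.
The genes most like THBS1 included TAP2 (r = 1.00), a peptide transporter of antigen presentation, and CLPS (0.99), the colipase of pancreatic juice. PF4 ranked 876 there. These values describe likeness over 8 arrays that share slides, and the ranks carry no test.

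The probes of both genes are shown beside the THBS1 probe above for their runs of C, again in capitals.
CLPS, bases 28 to 57: ttggcaattaaagCCCCtcttgcaaacctt
TAP2, bases 2 to 31: gcagcttttctcctCCCtcctgcaccagga
The longest run was 4 C in CLPS and 3 in TAP2, the last no longer than in PPBP and SELP. Of the 60 bases, 21 were C in TAP2, 18 in CLPS and 16 in the main THBS1 probe, against 14 in SELP, 10 in the main PPBP probe and 9 in PF4.
Counted over all 17343 tested probes with a value on every array, CCCCC stood in 689 (3.97%) and GGGGG, its complement, in 432 (2.49%), with 7 probes holding both. A total of 207 probes had r of at least 0.95 with the THBS1 probe, and 55 of them (26.6%) held CCCCC, whereas 5 (2.42%) held GGGGG. For PF4, PPBP and SELP, 16, 29 and 8 probes reached that r, and 0 of them held CCCCC. The motif was chosen after these values were seen, so the shares are a description.
Probes with CCCCC varied more over the 8 arrays, with a median SD of 0.64, against 0.41 for probes without it. Their median deviation from their own means was -0.63, -0.31, 0.17 and 0.25 in SDW arrays 1 to 4, against 0.24, -0.17, 0.21 and -0.10 in control arrays 1 to 4. The sign of this deviation was that of THBS1 on 4 arrays (SDW 1, SDW 3, control 2 and control 3) and the opposite on the other 4. THBS1 lay at -0.72 in SDW 4 and -0.97 in control 1, the arrays where these probes were highest. Their median difference between diets was -0.18, with 27.7% higher in SDW, against 0.02 and 53.9% for the other probes. The other 3 genes ran the other way: the median r with probes holding CCCCC was -0.43 for PF4, -0.51 for PPBP and -0.39 for SELP, against 0.05, 0.08 and 0.04 with the rest. For THBS1 it was 0.13, against -0.10, and 12.1% of probes with CCCCC, against 1.82% of the rest, had an r of at least 0.9. The part of this in the profiles of the 4 genes was not tested.

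**Figure D4:**
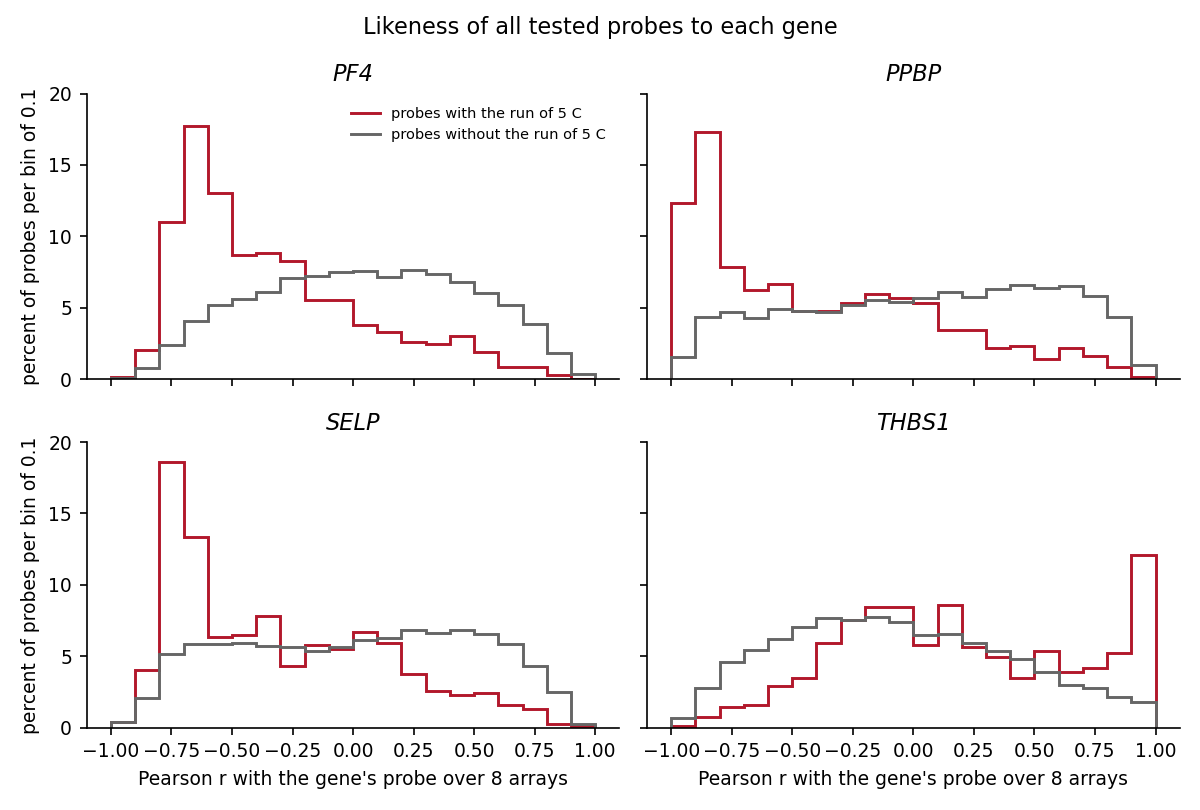
Distribution of Pearson r over 8 arrays between each gene's main probe and all other tested probes (percent of probes per bin of 0.1), for probes with a run of 5 C (red) and without it (grey). Red probes pile up at the right end for THBS1, where 12.1% of them lie above 0.9, and on the left for PF4, PPBP and SELP.

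Other platelet genes came from lists of granule cargo, adhesion and signalling receptors, and cytoskeleton and signalling. Of 82 such genes without the 4 described here, 40 were named on the array and 27 tested. None passed the adjusted or the unadjusted threshold in either direction (limma), against 0.928% of all probes higher and 0.519% lower. In the limma fit with slides as a block, 3 of the 27 passed the unadjusted threshold, ITGA6 on the higher side (unadjusted p = 0.0206) and SYK (unadjusted p = 0.0314) and TIMP1 (unadjusted p = 0.0379) on the lower. That fit put 6.59% of all probes past it and none past the adjusted threshold. The SDW mean was the higher one for 15 and the lower one for 12, and the median difference was 0.04, against 0.02 over all tested probes. Over the 1102 tested named genes, each read from its brightest probe like these, the median was -0.04, with 44.6% higher in SDW.
In the granule cargo list, coagulation factor F5 differed by 0.34 (SE 0.37). VWF, the von Willebrand factor that bridges platelets to collagen, differed by 0.04 (SE 0.24). TGFB1 differed by -0.05 (SE 0.24) and the chemokine CCL5 by -0.17 (SE 0.32). CLU, the chaperone clusterin, differed by -0.35 (SE 0.63), and TIMP1, an inhibitor of matrix metalloproteases, by -0.58 (SE 0.48). The granule list held values on both sides of 0, and no member passed the test.
Among receptors, ITGA2B differed by -0.08 (SE 0.25) and its partner ITGB3 by 0.10 (SE 0.36). The laminin receptor subunit ITGA6 had the largest value of its list, 0.62 (SE 0.33, limma unadjusted p = 0.0933), with 0.53, 0.61 and 0.85 within the slides. The tetraspanin CD9 differed by 0.26 (SE 0.35), the ADP receptor P2RY1 by 0.28 (SE 0.45) and the ATP-gated channel P2RX1 by -0.31 (SE 0.31). ITGB1, PECAM1, CD47 and ICAM2 lay between -0.17 and 0.06, and the 2 receptor genes not well above background on every array had -0.96 and 0.11. For CD9, 1 other tested probe had the opposite sign.
Of the cytoskeleton and signalling genes, VCL, the adhesion-plaque protein vinculin, differed by 0.29 (SE 0.27) and FLNA, the actin crosslinker filamin A, by -0.38 (SE 0.61). The kinase SYK, which acts below collagen receptors, differed by -0.45 (SE 0.30). TMSB4X, thymosin beta 4, RAB27A, TBXAS1, FYN and RGS10 lay between -0.07 and 0.10. No receptor or signalling gene passed the test. Both other tested RAB27A probes had the opposite sign.

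**Figure D5:**
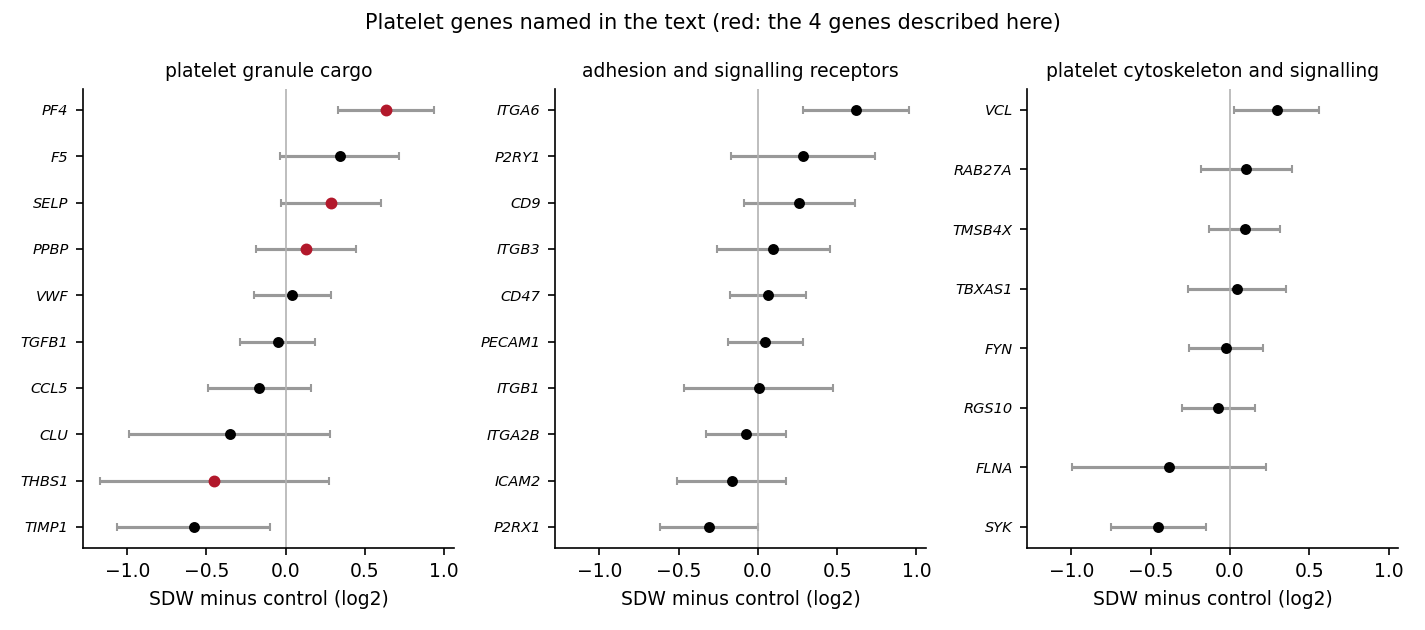
SDW minus control (log2, points ± SE) for platelet genes named in the text, by list, with the 4 genes described here in red. Values lie on both sides of 0 in each list, from 0.63 for PF4 to -0.58 for TIMP1 in the granule cargo list.

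Of 17 genes that bind or partner the 4 proteins, 10 were tested and none passed either threshold (limma); 4 had the higher mean in SDW and 6 in control, with a median difference of -0.04. In the limma fit with slides as a block, 1 of the 10, ITGAV, passed the unadjusted threshold (unadjusted p = 0.0211). CD47 differed by 0.06 (SE 0.24). CXCR3, the chemokine receptor that binds PF4, differed by -0.45 (SE 0.39), and ITGAV, the alpha subunit of a vitronectin receptor, by 0.40 (SE 0.29). FCER1G and ITGB2 lay between -0.12 and -0.01, and the 2 partner genes not well above background on every array had -0.08 and 0.11. Of 16 megakaryocyte genes, 4 were tested and none passed. They were the transcription factor GATA2 (-0.21, SE 0.60), its cofactor LDB1 (-0.39, SE 0.49), the stem cell factor receptor KIT (0.00, SE 0.46) and the chemokine receptor CXCR4 (-0.42, SE 0.39).
Markers of other blood cells are given beside these values. All 6 tested neutrophil markers had the lower mean in SDW, with a median of -0.59. Of the 1102 tested named genes, 44.6% had the higher mean in SDW. All 6 were lower in SDW on slides 1 and 3, but on slide 2 some were higher and others lower. FCGR3A, which had the brightest probe, differed by 0.49 on slide 2, against -0.35 on slide 1 and -0.71 on slide 3. The summed linear level of the 6 ran from 730 to 1256 in SDW animals, against 954 to 1366 in control animals. Of 6 monocyte markers, 2 passed an unadjusted p of 0.05 on the higher side in SDW and none the adjusted one (limma). Over all probes, 0.928% passed the unadjusted threshold on the higher side and 0.519% on the lower. The 6 monocyte markers had 4 higher and 2 lower means in SDW, with a median of 0.07. Their sum ran from 138 to 243 in SDW animals, against 97.9 to 150 in control animals, LGALS1 having the brightest probe. A sum of linear levels follows its brightest probes most. In the fit with slides as a block, 2 neutrophil markers passed the unadjusted threshold on the lower side, and of the monocyte markers 2 passed on the higher side and 1 on the lower. That fit put 6.59% of all probes past it, and no T cell or endothelial marker. T cell markers had 3 higher and 3 lower means of 6, with a median of -0.09. Their sums ran from 56.4 to 87.3 in SDW animals, against 39.8 to 71.6 in control animals, and CD3D had the brightest probe. That probe differed by 0.26, and the other tested CD3D probes by 0.44 and -0.86. NK and cytotoxic markers had 2 lower of 2, led by GNLY, with 1 past the unadjusted threshold, both without slides and with slides as a block. The 4 endothelial markers, led by PECAM1, had a median of 0.04, and none of the 2 erythroid markers named on the array was bright enough to test. The part of these cells in the values of PF4, PPBP, SELP and THBS1 was not tested.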

How the data were processed

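Whole blood of 4 SDW-fed and 4 control pigs was kept in PAXgene tubes and Cy3-labelled cRNA was hybridised to 1-colour Agilent arrays, per the labels' protocols. The deposited scanner files hold spot intensity on a linear scale after background subtraction and detrending, from Feature Extraction 10.1.1.1 per the file headers and 9.5.3.1 per the submitters' processing notes. Arrays limit precision by their number, 4 a diet. The authors' value table, also intensity, served as an alternative. No source used here says how it was scaled.

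The processed signal was taken to log2 minus each array's 75th percentile. Outlier spots were left out and spots of a probe averaged. Probes well above background on at least 4 of 8 arrays were tested with limma 3.58.1 (R 4.3.3), with Benjamini-Hochberg adjustment over 17353 probes, after a check on simulated data. The brightest tested probe stood for a gene. Probes were named from symbols, accessions and descriptions in the files and the pig gene tables, 3010 in all. All probes of the 4 genes are described. Platelet, megakaryocyte and partner genes are named where all 8 arrays were well above background, and the 3 named genes most like each gene by Pearson r are given. A few genes these rules would name, and 1 short marker list, are not reported here. Other cell lists appear as counts with their brightest gene. Members and lists were chosen with earlier results of these data known. Slides were read from the file headers. Replicate numbers were not treated as pairs: same-numbered arrays correlated at -0.17, 0.11, 0.33 and -0.38. Alternatives changed scaling, background correction, source, filter, slide, replicate block, array weights, probe choice and arrays left out.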

Additional observations from a re-analysis of the deposited data

Results flagged for a closer look

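PF4 in SDW 1 lay at 6.55 on the log2 scale, far above the other 3 SDW animals (5.74 to 5.84) for the range of that group. Of 12 groups checked, the 6 probes of the 4 genes in each diet, this was the 1 that stood out, and chance marks about 1 in 20. Without SDW 1 the PF4 difference between diets was 0.44, against 0.63 with it.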

How the results depend on the processing

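PF4 and SELP kept their sign in all 24 alternatives, PF4 from 0.44 to 0.84 and SELP from 0.08 to 0.52. Some alternatives could not move either value: the filter changes, the replicate block and, with 1 tested probe each, the mean over a gene's probes. PPBP turned to -0.0094 without slide 1, and THBS1 to 0.048 without slide 2. Leaving out 1 animal gave 0.44 to 0.80 for PF4, -0.068 to 0.29 for PPBP, with -0.0061 without SDW 1, -1.02 to 0.10 for THBS1, 0.08 to 0.52 for SELP and 0.11 to 0.81 for the chemokine minus adhesion contrast. None of the 4 genes passed an adjusted p of 0.05 in any alternative run. Probes past the adjusted threshold numbered 0 in each alternative except 1 without slide 3. Probes past an unadjusted p of 0.05 numbered 251 of 17353. With other numbers of probes tested, they were 823 of 43603 without a filter and 165 of 13666 with all 8 arrays above background. Over the same 17353 probes the count was 162 with normexp and the 75th percentile and 269 with normexp and quantile scaling. It was 1143 with the slide as a fixed block, 631 as a random block, 543 without slide 3 and 179 to 518 without 1 animal. With the replicate number as a block it was 239, and the PF4 difference 0.63. Some of these fits held other numbers of animals or probes, and the cause of the changes in count was not tested.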
